A study of Mus musculus with 10 samples.

Results

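A set of 6 genes that T cells switch on within minutes to hours of antigen receptor stimulation, Egr1, Egr2, Egr3, Nr4a1, Nr4a2 and Nr4a3, were followed through the open chromatin around them in mouse Th17 cells that lacked pyruvate dehydrogenase or carried it, with and without sodium acetate. A site of the deposited ATAC-seq table was assigned to its nearest protein-coding gene body on GRCm38, at no more than 50 kb, with a distance of 0 for a site that overlapped the body. By this rule 31 of the 39657 sites belonged to the 6 genes. Nr4a1 had 10 sites, Nr4a3 had 7, Egr2 had 6, Egr1 and Egr3 had 3 each and Nr4a2 had 2, so no member was without a site. All 31 sites were 201 bp wide, and 12 of them overlapped a gene body. Among the 12580 genes with a site the median number was 2, and Nr4a1 had more sites than 95.7% of them.

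EGR1, EGR2 and EGR3 are zinc finger transcription factors that bind GC-rich DNA, and NR4A1, NR4A2 and NR4A3 are orphan nuclear receptors that act without a known physiological ligand. All are immediate early genes, transcribed without new protein synthesis when calcium and kinase signals from the receptor reach factors such as SRF, MEF2 and CREB already present in the cell. In T cells EGR2, EGR3 and the NR4A proteins are best known for restraining responses, in anergy, tolerance and exhaustion, and EGR1 for relaying the early activation signal. Pyruvate dehydrogenase makes the acetyl-CoA that mitochondria draw from pyruvate, whereas acetate can supply acetyl-CoA outside them. ATAC-seq measures how often a transposase inserts sequencing adapters into a stretch of chromatin, so a higher signal means DNA that is more open.

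The cells were naive CD4+ T cells from spleen and lymph nodes of PDHfl/fl mice, called WT here, and of PDHfl/fl CD4 Cre+ mice, called KO here, in which a CD4-driven Cre recombinase deletes the floxed gene in T cells. The sample titles spell the floxed allele PHD where the other labels have PDH. Cells of both genotypes were cultured for 3 days under Th17 conditions with plate-bound anti-CD3, anti-CD28, IL-6, TGFβ and anti-IFNγ, so every group was stimulated through the antigen receptor throughout. The groups were untreated WT (n = 3), untreated KO (n = 3), WT with 10 mM sodium acetate (n = 2) and KO with 10 mM sodium acetate (n = 2), acetate being present during the whole culture. Age and sex of the mice were not given in the sources used here, nor whether the libraries of a group came from separate mice, so p-values measure only the spread between libraries, which may be technical. Libraries are named by group and by the number in the column name; the column numbers WT untreated 4 and KO with acetate 3 do not occur in the sample titles, and these columns were placed by group only. The column names carry the prefix ATAC1 for the 3 untreated KO libraries and for WT untreated 1 and 2, and ATAC2 for WT untreated 4 and all 4 acetate libraries.

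The libraries held 3500172 to 13356560 reads in sites, and an estimated 11 to 1239 reads stood behind a value at a member site. All 5 T cell genes and all 6 Th17 genes of the marker lists had sites, whereas Cd8a, Cd8b1, Ms4a1, Cd79a, Cd79b, Lyz2, Csf1r and Cd68 had none. Of the 5 myeloid genes listed, 2 had sites, and so did 2 of the 6 B cell genes listed. Pdha1, a gene for part of the catalytic core of the enzyme, had 1 site, with a signal of 43.9 to 68.6 in untreated KO and 89.4 to 120 in untreated WT, and as an accessibility site it does not test for the deletion. The deposited scale carries a large shift between untreated genotypes, since the median log2 difference of all sites was -0.84, and with cyclic loess scaling, which centres the libraries on each other, it was -0.00. Differences are on the deposited scale unless cyclic loess is named.

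The sites most directly tied to transcription of these genes cover the promoters of Nr4a1, Nr4a3 and Nr4a2, so the 250 bases before each start are shown as RefSeq gives them for GRCm38.p6, from 5′ to 3′ on the gene's strand. Capitals mark the bases that lie inside a measured site.
Nr4a1, chr15:101266596-101266845, plus strand: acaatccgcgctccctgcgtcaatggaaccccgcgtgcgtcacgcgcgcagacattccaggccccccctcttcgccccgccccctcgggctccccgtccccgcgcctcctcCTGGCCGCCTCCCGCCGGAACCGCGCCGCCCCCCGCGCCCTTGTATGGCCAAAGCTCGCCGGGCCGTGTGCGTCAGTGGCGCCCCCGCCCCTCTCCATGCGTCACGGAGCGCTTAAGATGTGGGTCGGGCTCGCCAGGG
Nr4a3, chr4:48045055-48045304, plus strand: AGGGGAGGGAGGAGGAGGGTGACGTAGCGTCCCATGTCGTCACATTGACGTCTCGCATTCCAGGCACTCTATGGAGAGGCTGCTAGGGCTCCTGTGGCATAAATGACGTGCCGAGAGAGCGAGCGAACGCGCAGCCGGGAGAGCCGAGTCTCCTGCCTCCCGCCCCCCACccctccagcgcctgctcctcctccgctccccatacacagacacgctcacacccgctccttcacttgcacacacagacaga
Nr4a2, chr2:57124004-57124253, minus strand: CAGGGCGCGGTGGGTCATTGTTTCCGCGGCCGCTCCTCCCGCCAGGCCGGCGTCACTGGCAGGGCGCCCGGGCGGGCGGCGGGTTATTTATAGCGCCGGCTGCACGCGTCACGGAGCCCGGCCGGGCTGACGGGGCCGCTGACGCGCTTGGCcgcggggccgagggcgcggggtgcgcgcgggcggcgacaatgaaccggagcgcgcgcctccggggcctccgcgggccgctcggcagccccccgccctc

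Motifs were searched on both strands in 32851 RefSeq promoter windows running from 250 bases before to 50 after a start. The EGR site GCGNGGGCG occurred in 5.55% of them, the NR4A monomer element NBRE, AAAGGTCA, in 1.51%, the CRE, TGACGTCA, in 1.79%, the AP-1 site TGANTCA in 7.81%, the SRF-binding CArG box in 1.63% and the NFAT core GGAAA in 61.3%. The Nr4a1 window held 1 EGR site, the match CGCCCCCGC on the minus strand starting 60 bases before the start, inside the capitals. An EGR site match in the Nr4a2 window, GCGCGGGCG at 74 bases before the start, lay outside the measured site, and its NFAT core match, TTTCC on the minus strand 230 bases before the start, lay inside the capitals. The Nr4a3 window held none of the 6 motifs. RefSeq lists 5 start windows for Egr2 in the table used, and 3 of them, which overlap each other, hold the CArG box match CCATATATGG, but no measured site overlaps any of the 5. Where 2 motifs were found close together, in another Egr2 window, the NFAT core overlapped the CArG box. Egr1 and Egr3 have no entry in that promoter table.

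The first comparison asks what loss of the enzyme did to these loci in untreated cells. As deposited, all 31 sites were called lower in KO than in WT and none higher (limma, adjusted p between 2.56e-09 and 0.00317), where 89.6% of all sites were called lower and 9.07% higher. The median log2 difference of the 31 was -0.99, from -1.92 to -0.62, against -0.84 for all sites. Untreated KO libraries lay wholly below untreated WT libraries at 27 of the 31 sites, and wholly above at 0, where 80.9% of all sites lay below and 8.61% above. With cyclic loess 1 of the 31 sites was lower and none higher, against 2.41% of all sites lower and 9.35% higher, and the median of the 31 was -0.13. The count of 31 is thus near the background of the deposited scale. A fit of only the 5 untreated libraries with the prefix ATAC1 called 29 of the 31 lower, where it called 87.6% of all sites lower. A lower signal in a library of many cells cannot tell fewer cells with an open site from less opening per cell. The site that stayed lower was at Egr2, and it was also the only one called with total signal, where 5.74% of all sites were lower, or with median-of-ratios factors, where 3.34% were.

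**Figure D1:**
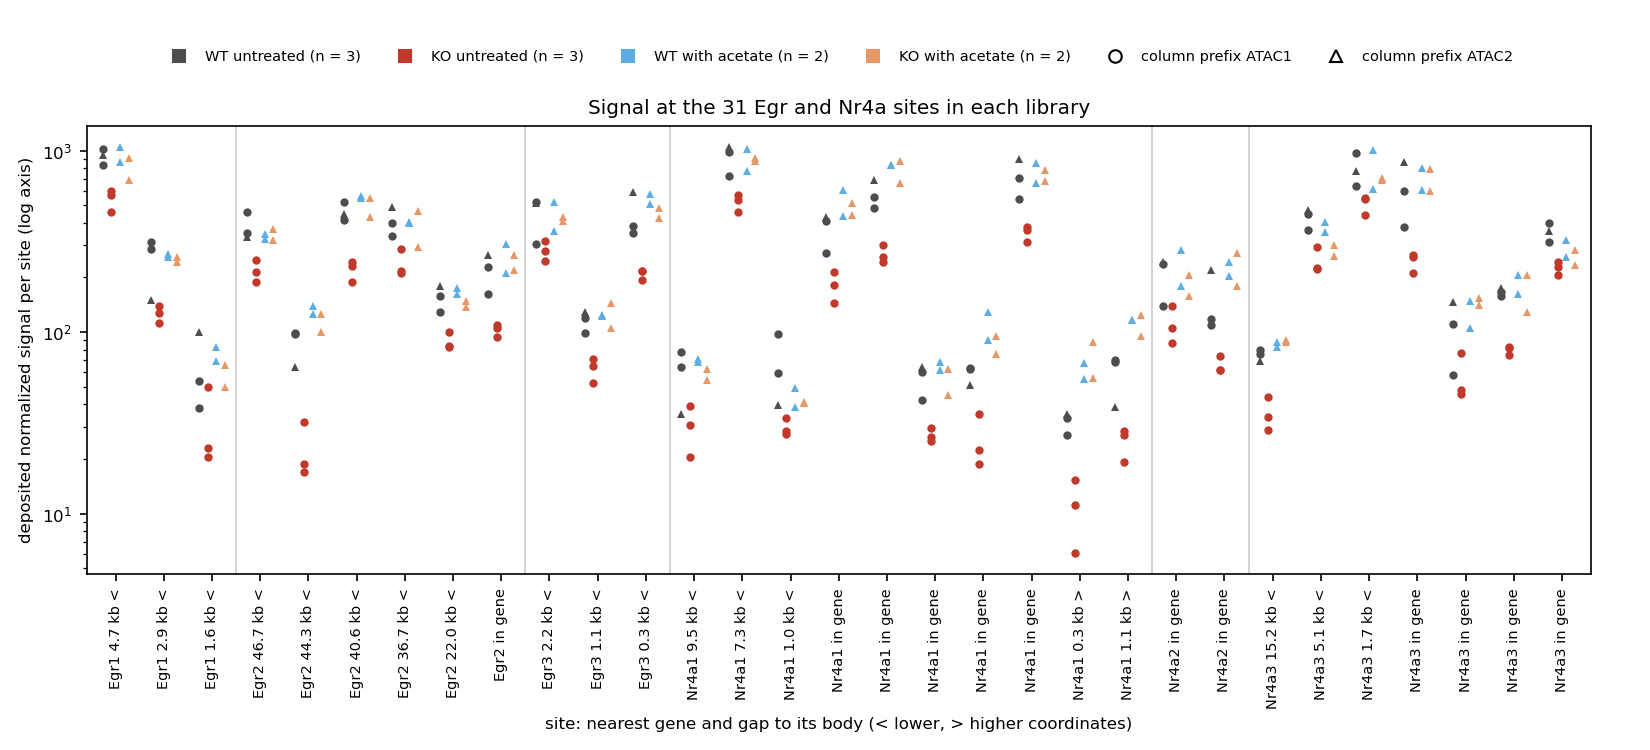
Normalized signal (vertical log axis) at each of the 31 sites, in the order of the genes and of position, in each of the 10 libraries, with colour for group and shape for the prefix of the column name. Untreated KO libraries lie wholly below untreated WT libraries at 27 sites, and at the Egr2 site 44.3 kb from the gene they are at 17.0 to 31.9 against 64.1 to 98.5.

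Egr2 encodes a factor linked to T cell anergy and to restraint of effector genes. Its site at chr10:67490018-67490218, 44.3 kb outside the gene body and 45.4 kb upstream of the nearest start, had a signal of 97.4, 98.5 and 64.1 in WT untreated 1, 2 and 4. In KO untreated 1, 2 and 3 it was 17.0, 18.7 and 31.9. The highest KO library was below the lowest WT library by a wide margin. The log2 difference was -1.92 ± 0.27 (SE; adjusted p = 2.56e-09), a fold of 0.264, and only 0.353% of all sites had a lower value. With cyclic loess it was -0.99 ± 0.21 (adjusted p = 0.00235), with total signal -1.23 and with median-of-ratios factors -1.14. This was the weakest of the 6 Egr2 sites by mean log2 signal, and the fewest reads behind a value at Egr2 were 20.

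The other 5 Egr2 sites moved with the table. The strongest, at chr10:67493625-67493825 and 40.6 kb from the gene, had 523, 413 and 450 in WT and 188, 233 and 245 in KO, without overlap, and its log2 difference was -1.06 ± 0.20 (adjusted p = 5.65e-06). With cyclic loess the same site was at -0.29 (adjusted p = 0.219). A site inside the gene, 555 bases after the nearest start, had 227, 163 and 264 in WT and 105, 94.3 and 109 in KO. Its log2 difference was -1.05, and -0.21 with cyclic loess. At the remaining 3 Egr2 sites the deposited values ran from -0.80 to -0.76, and those with cyclic loess from 0.00 to 0.07.

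Egr1, which encodes a factor induced in many cell types by growth and stress signals, had 3 sites, all 1.6 to 4.7 kb from its gene on chromosome 18 (body 34861207-34864956). The strongest of them, chr18:34856287-34856487, was also the member site with the highest mean signal. It had 1023, 837 and 944 in WT and 456, 602 and 572 in KO, without overlap. The log2 difference was -0.79 ± 0.18 (adjusted p = 8.44e-05), and it moved to -0.13 with cyclic loess and to 0.02 with median-of-ratios factors. So the direction at this site depended on the scaling. The weakest Egr1 site had 53.7, 38.2 and 99.5 in WT and 23.0, 20.5 and 49.7 in KO, so that KO untreated 3 was above WT untreated 2.

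Egr3, whose product shares tolerance functions with EGR2, had 3 sites within 2.2 kb of its gene on chromosome 14 (body 70077317-70082613). The strongest, chr14:70074908-70075108, had 522, 306 and 514 in WT and 246, 281 and 316 in KO. KO untreated 3 was above WT untreated 2, so the groups overlapped. This site had a log2 difference of -0.64 ± 0.21 (adjusted p = 0.00317), and 0.14 with cyclic loess. The site with the smallest p, chr14:70076787-70076987 at 0.330 kb from the gene, had 383, 349.6 and 588 in WT and 195, 216 and 216 in KO. There the groups were apart, with log2 -1.04 ± 0.21 (adjusted p = 1.01e-05), and -0.25 with cyclic loess (adjusted p = 0.433).

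Nr4a1 encodes NUR77, widely used as a reporter of antigen receptor signal strength, and its 10 sites spanned from 9.5 kb before the body (chr15:101253902-101274795) to 1.1 kb past it. All 10 were called lower as deposited and none with cyclic loess, with medians of -1.02 and -0.24. The strongest site, chr15:101246363-101246563, had 985, 726 and 1049 in WT and 458, 537 and 572 in KO. It was lower by less than the table median, at -0.80 ± 0.18, and was at -0.14 with cyclic loess (adjusted p = 0.478). The site with the smallest p, chr15:101258537-101258737, had 553, 482 and 689 in WT and 242, 258 and 301 in KO. It lay inside the gene body but 8.2 kb upstream of the only RefSeq start listed for Nr4a1. Its log2 difference was -1.09 ± 0.20 (adjusted p = 1.28e-06), and -0.37 ± 0.12 with cyclic loess (adjusted p = 0.0727).

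The site over the Nr4a1 promoter, whose upstream bases are printed in capitals, was the second strongest at that gene. It had 708, 537 and 899 in WT and 314, 380.2 and 364 in KO, again without overlap. The log2 difference was -0.99 ± 0.19 (adjusted p = 6.23e-06), and -0.28 with cyclic loess (adjusted p = 0.179). A pair of weak sites past the end of the gene, chosen for description after their values were seen, had larger deposited differences. At chr15:101275094-101275294, 0.299 kb past the body, the signal was 33.7, 27.1 and 35.4 in WT and 6.03, 11.2 and 15.4 in KO, with log2 -1.55 ± 0.34, and -0.69 with cyclic loess (adjusted p = 0.223). The fewest reads behind a value at Nr4a1 were 11, so these low levels carry the most counting error.

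Nr4a2 encodes NURR1, and both its sites lay inside the gene (chr2:57106830-57124003), 6.3 and 8.7 kb after the start. At chr2:57115204-57115404 the signal was 236, 139.6 and 244 in WT and 105, 86.9 and 138 in KO. The highest KO library, at 138, was just below the lowest WT library. At chr2:57117615-57117815 it was 109.9, 118 and 221 in WT and 73.5, 61.6 and 61.5 in KO, with log2 -1.11 ± 0.23 (adjusted p = 2.02e-05), and -0.24 with cyclic loess. The site over the Nr4a2 promoter is nearest by the rule to another gene model, LOC105244150, and so is not among the 31. It had 238, 146.7 and 328 in WT and 119, 88.7 and 129 in KO, log2 -1.02 ± 0.22 (adjusted p = 4.23e-05), and -0.18 with cyclic loess (adjusted p = 0.741).

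Nr4a3 encodes NOR1, and its body (chr4:48045078-48086447) held 4 of its 7 sites. The strongest site, chr4:48043130-48043330, lay 1.7 kb before the body and had 965, 635 and 774 in WT and 441, 538 and 545 in KO. Of the 31 sites this one had the smallest deposited difference, -0.62 ± 0.19, and it was at 0.06 with cyclic loess. The promoter site, chr4:48045024-48045224, had 599, 379.8 and 861 in WT and 213, 259.7 and 265 in KO. The WT libraries there were spread widely, yet all 3 were above every KO library. Its log2 difference was -1.24 ± 0.21 (adjusted p = 4.09e-07), a fold of 0.422, and -0.51 ± 0.17 with cyclic loess (adjusted p = 0.063). The difference between these neighbouring sites was not tested.

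The second comparison asks whether the genotypes differed when both were given acetate. None of the 31 sites was called (limma, adjusted p between 0.993 and 0.999), and none had an unadjusted p under 0.05. Of all sites 0.0227% were called higher and 0.0% lower. The median difference of the 31 was -0.12 against -0.15 for all sites, and the values ran from -0.44 to 0.24 with standard errors of 0.22 to 0.42. At the Egr2 site 44.3 kb from the gene WT had 126 and 138 and KO had 126 and 99.6, log2 -0.24 ± 0.33. At the Nr4a3 promoter WT had 797 and 609 and KO had 790.3 and 600.3, log2 -0.02 ± 0.25. The Nr4a1 promoter had 855 and 663 in WT and 782 and 677 in KO. At these 3 sites the genotypes overlapped. KO lay wholly below WT at 7 of the 31 sites and wholly above at 1, against 30.3% and 4.63% of all sites, and with 2 libraries a group the standard errors leave room for differences of some size.

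The third comparison asks what acetate did in KO cells. As deposited, 28 of the 31 sites were called higher with acetate and none lower, where 54.6% of all sites were higher and 5.94% lower. The 3 sites that did not pass were Nr4a1 chr15:101252749-101252949 (log2 0.45) and Nr4a3 chr4:48039729-48039929 (0.19) and chr4:48074899-48075099 (0.20). The median of the 31 was 0.99 against 0.61 for all sites. KO acetate libraries lay wholly above untreated KO libraries at 29 of the 31 sites and wholly below at 0, against 69.8% and 8.15% of all sites. With cyclic loess 13 of the 31 were higher and 1 lower, against 11.5% and 16.7% of all sites, and the median of the 31 was 0.34 against -0.02. The member site lower with that scaling was Nr4a3 chr4:48039729-48039929 (-0.41, adjusted p = 0.0322). It was lower also with median-of-ratios factors, where 12 of the 31 were higher against 13.3% of all sites higher and 15.9% lower. With total signal it was not called and 14 of the 31 were higher, against 17.3% of all sites higher and 12.6% lower. Without KO untreated 2, 20 of the 31 were called as deposited, where 47.9% of all sites were called, against 60.6% with all libraries. A fit without KO with acetate 1 or 3 leaves 1 library in that group, so its calls are not given.

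**Figure D2:**
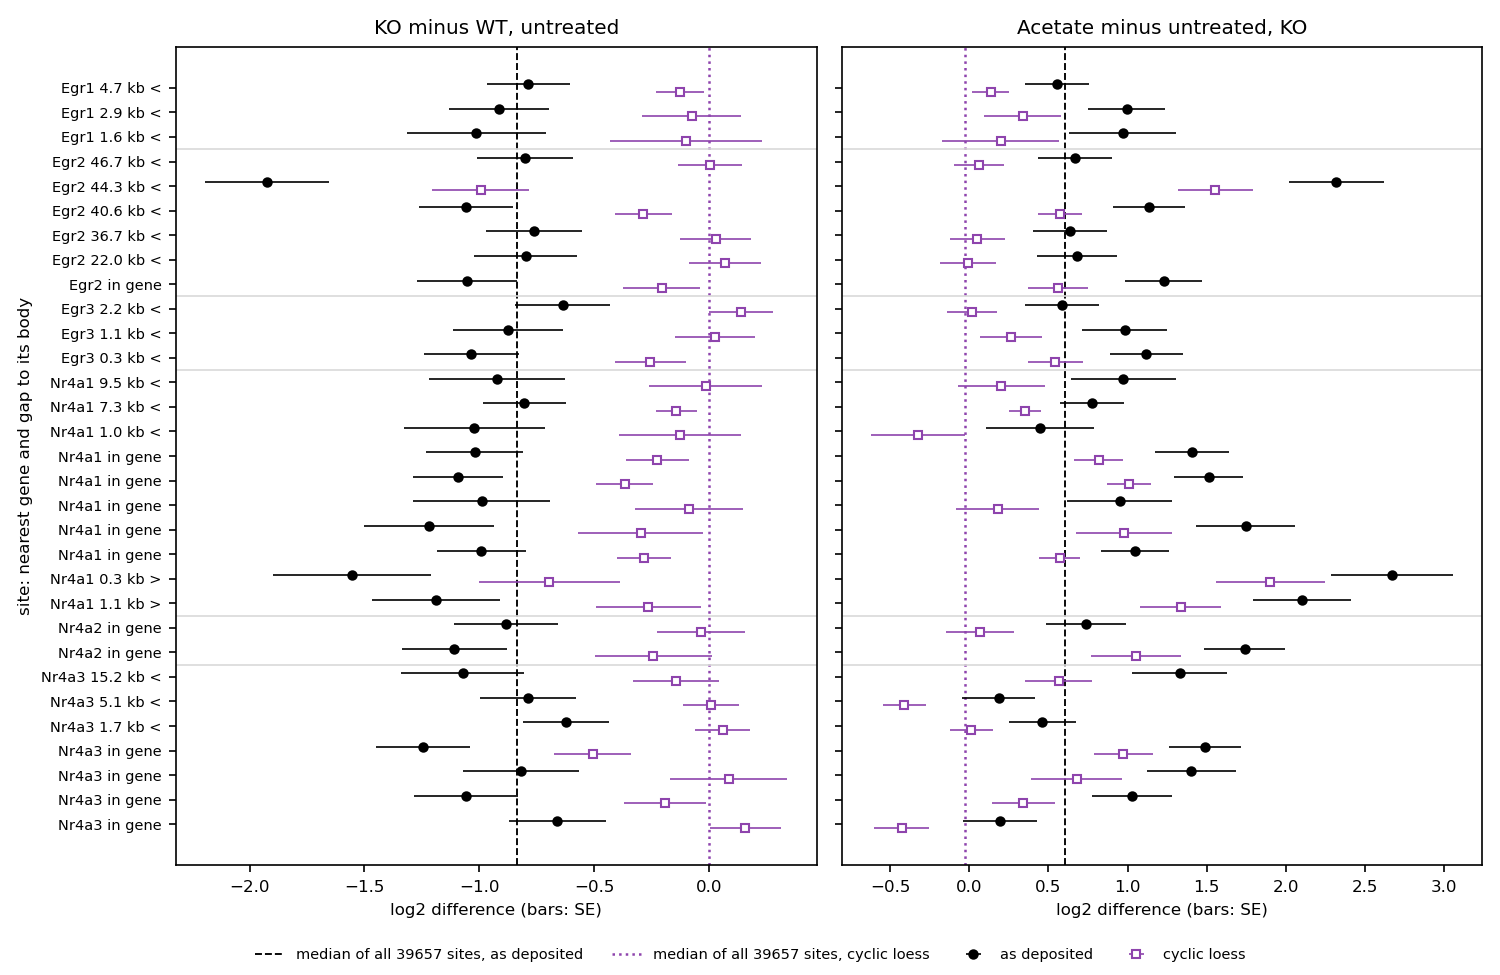
Log2 difference with its standard error at each of the 31 sites, for KO minus WT untreated (left) and acetate minus untreated in KO (right), as deposited (filled circles) and with cyclic loess (open squares), with vertical lines at the medians of all 39657 sites. On the left the deposited values lie around the table median of -0.84 with the Egr2 site at -1.92 apart, and on the right 13 of the open squares belong to sites called higher.

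By gene, the cyclic loess count was 7 of 10 sites higher at Nr4a1, 3 of 6 at Egr2, 1 of 2 at Nr4a2, 1 of 3 at Egr3, 1 of 7 at Nr4a3 with 1 lower, and 0 of 3 at Egr1. The median at Nr4a1 was 0.69 on that scale and at Egr1 0.20. Of the 31 sites, 10 were called higher with cyclic loess, total signal and median-of-ratios factors alike, against 10.5% of all sites. Of those, 5 were at Nr4a1, 3 at Egr2, and 1 each at Nr4a2 and Nr4a3. By place, 7 of the 12 sites inside a gene body were higher with cyclic loess and 6 of the 19 outside. The Nr4a1 body begins well before its only listed start. Of the 7, chr15:101253841-101254041, chr15:101258537-101258737 and chr15:101262592-101262792 lay 12.9, 8.2 and 4.2 kb upstream of that start.

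The Egr2 site at chr10:67490018-67490218 had the lowest log2 difference of the member sites in untreated KO against WT. In KO it had 126 and 99.6 with acetate against 17.0, 18.7 and 31.9 without. The log2 difference with acetate was 2.32 ± 0.30 (limma, adjusted p = 8.74e-11), and 1.56 ± 0.24 with cyclic loess (adjusted p = 0.000142). The acetate values of this site were above those of all 3 untreated WT libraries, though only by 99.6 against 98.5 at the closest. The strongest Egr2 site had 546 and 431 with acetate against 188 to 245, log2 1.13 ± 0.23, and 0.57 with cyclic loess (adjusted p = 0.00592). Inside Egr2 the signal was 265 and 220.2 against 94.3 to 109, log2 1.23 ± 0.24, and 0.56 with cyclic loess (adjusted p = 0.0344). All 3 passed on both scales.

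At Nr4a1, the site with the largest deposited difference of the 31 was the weak one at chr15:101275094-101275294, with 88.7 and 55.8 against 6.03, 11.2 and 15.4, log2 2.67 ± 0.39 (adjusted p = 3.33e-09), and 1.90 ± 0.34 with cyclic loess. Its neighbour at chr15:101275880-101276080 had 124 and 95.0 against 19.2, 27.1 and 28.4, a fold of 4.30, and a log2 difference of 1.34 ± 0.26 with cyclic loess. The site chr15:101258537-101258737, upstream of the listed start, had 874 and 662 against 242, 258 and 301, log2 1.51 ± 0.22 (adjusted p = 3.53e-09), and 1.01 ± 0.14 with cyclic loess (adjusted p = 6.02e-05). In these 3 sites every acetate library was above every untreated KO library by a factor well beyond the spread within either group. The promoter site rose from 314, 380.2 and 364 to 782 and 677, log2 1.05 ± 0.21, and 0.57 ± 0.13 with cyclic loess (adjusted p = 0.00386). With median-of-ratios factors the promoter value was 0.43 (adjusted p = 0.0655).

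At Nr4a2, chr2:57117615-57117815 had 271 and 179 with acetate against 61.5 to 73.5, log2 1.74 ± 0.26 (adjusted p = 9.16e-09), and 1.05 ± 0.28 with cyclic loess (adjusted p = 0.0106). The other Nr4a2 site had 207 and 158 against 86.9 to 138, log2 0.74 ± 0.25, and 0.07 with cyclic loess. Thus on the centred scale 1 of the pair passed and the other lay close to the median of all sites, and the difference between them was not tested. The Nr4a3 promoter had 790.3 and 600.3 against 213, 259.7 and 265, log2 1.49 ± 0.23 (adjusted p = 5.89e-08), and 0.97 ± 0.19 with cyclic loess (adjusted p = 0.000972). The stronger site 1.7 kb before that gene had 704 and 689 against 441, 538 and 545, log2 0.46 ± 0.21 (adjusted p = 0.049), and 0.01 with cyclic loess.

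Egr3 had 1 site higher with cyclic loess, chr14:70076787-70076987, with 484 and 425 against 195, 216 and 216, log2 1.12 ± 0.23, and 0.54 with cyclic loess (adjusted p = 0.025). The strongest Egr1 site had 911 and 689 against 456, 602 and 572, log2 0.55 ± 0.20 (adjusted p = 0.0145), and 0.14 with cyclic loess (adjusted p = 0.418). The ranges in Egr1 therefore did not overlap, while the centred difference did not pass.

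**Figure D3:**
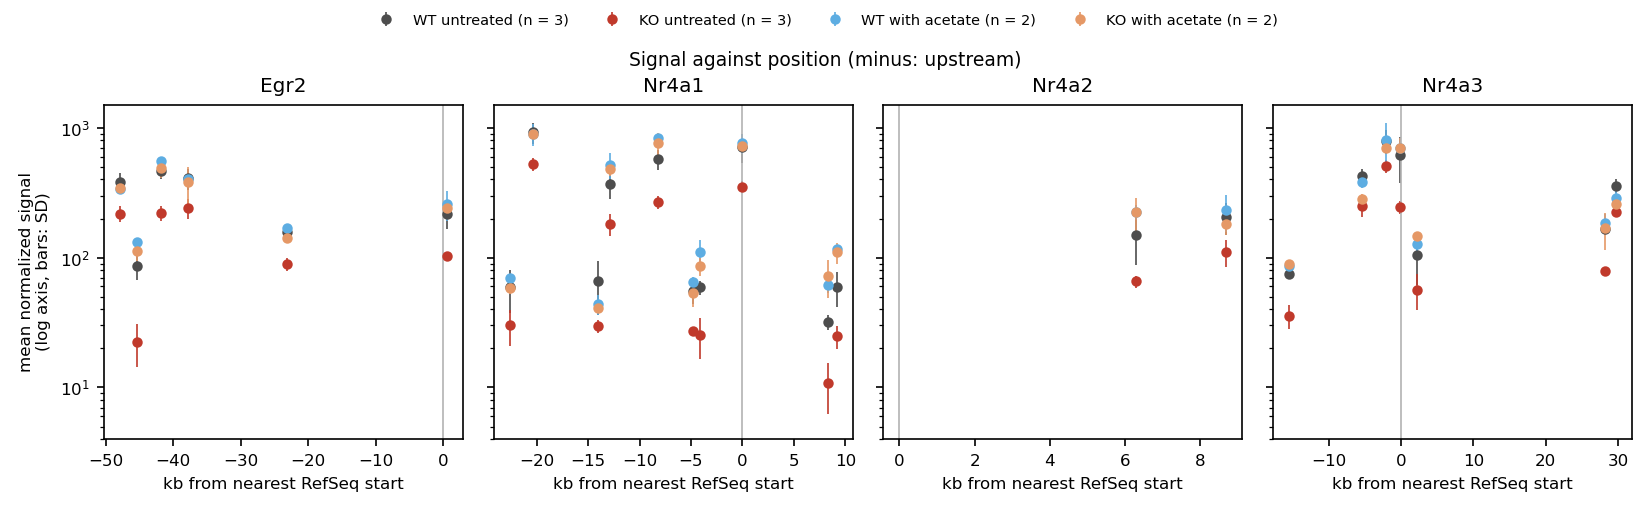
Mean signal with SD (vertical log axis) in each group against the distance of a site's centre from the nearest RefSeq start, for the genes with start positions in the promoter table. Untreated KO (red) is the lowest group at every site drawn, and at the Egr2 site 45.4 kb upstream it is at 22.5 ± 8.17 against 86.7 ± 19.5 in untreated WT.

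Set beside untreated WT, KO cells with acetate had a group mean of 0.623 to 2.25 times the WT mean over the 31 sites, with a median of 1.01. Both KO acetate libraries were above all untreated WT libraries at 6 sites and below all of them at 2, against 9.36% and 25.2% of all sites. For comparison, untreated KO had 0.26 to 0.642 times the WT mean. Every untreated KO library is ATAC1 and every acetate library ATAC2, so in KO an effect of acetate and one of the prefix cannot be told apart. Untreated WT has libraries of both kinds. There WT untreated 4 (ATAC2) was above the mean of WT untreated 1 and 2 (ATAC1) at 21 of the 31 sites, against 19426 of all 39657 sites. The median log2 difference was 0.24 at the 31, against -0.01 for all sites. At the 13 sites called higher with acetate in KO under cyclic loess that median was 0.38, with 9 above 0. At the other 18 it was 0.16, with 12 above 0. On the cyclic loess scale these medians were 0.27 and 0.14. Over the 31 sites the prefix difference and the acetate difference in KO had a Pearson r of -0.02, and 0.13 with cyclic loess. Over all sites r was 0.13 and 0.11. The prefix difference rests on a single ATAC2 library, and sites are not replicates, so these values only describe. The Nr4a3 promoter (599 and 379.8 against 861) and the Nr4a2 site chr2:57117615-57117815 (109.9 and 118 against 221) are examples of sites where WT untreated 4 was higher. The Egr2 site 44.3 kb from its gene went the other way, 97.4 and 98.5 against 64.1. The part of the prefix in the acetate differences was not tested.

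The fourth comparison asks what acetate did in WT cells. A single site of the 31 was called higher as deposited, against 2.91% of all sites, and none lower, against 3.02%. It was Nr4a1 chr15:101275880-101276080, with 117 and 117 with acetate against 68.7, 70.3 and 38.7, log2 1.02 ± 0.31 (adjusted p = 0.0276), and 1.05 with cyclic loess (adjusted p = 0.0201). This call rests on 2 WT libraries with acetate, and a fit without either leaves 1, so its calls are not given. With cyclic loess 3 sites were called, against 4.43% of all sites, and none lower, against 4.07%. All 3 were at Nr4a1. The other two were chr15:101258537-101258737 (837 and 833 against 553, 482 and 689, 0.61 with cyclic loess, adjusted p = 0.0156) and chr15:101253841-101254041 (603 and 435 against 407, 272 and 432, 0.53, adjusted p = 0.0431). WT acetate libraries lay wholly above untreated WT at 8 of the 31 sites and wholly below at 0, against 16.1% and 15.3% of all sites. The median of the 31 was 0.19 against -0.03. Both WT acetate libraries are ATAC2, whereas WT untreated 1 and 2 are ATAC1, so acetate and prefix are partly mixed in WT too. WT untreated 4 (ATAC2) was above both at chr15:101258537-101258737 (689) and chr15:101253841-101254041 (432). It was below both at chr15:101275880-101276080 (38.7), and the part of the prefix was not tested.

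Whether the genotype effect changed with acetate was asked by an interaction term. As deposited it was called above 0 at 12 of the 31 sites, against 19.5% of all sites, and below 0 at none, against 3.61%, with a median of 0.86 against 0.67. With each of the 3 other scalings none of the 31 was called, where cyclic loess called 0.139% of all sites above 0 and 7.36% below. Counts without single untreated libraries ran from 1, without KO untreated 1, to 19, without WT untreated 2. Those 2 fits called 3.33% and 45.1% of all sites. Because the prefix is split between untreated and acetate in KO, this term and an unequal prefix effect in the genotypes cannot be told apart.

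As a share of all nuclear signal in sites, which does not depend on the deposited factors, the 31 sites took 8.25 to 8.59 parts per 10000 in untreated KO and 8.88 to 10.2 in untreated WT. They took 10.5 to 10.9 in WT with acetate and 10.7 to 11.3 in KO with acetate. In this sum, acetate libraries of both genotypes were thus above all untreated libraries, and untreated KO was the lowest group. Gene by gene this held for Egr2 and Nr4a1. At Egr1, Egr3, Nr4a2 and Nr4a3 an acetate library was below the highest untreated WT library. Those pairs were 1.16 against 1.29, 1.06 against 1.16, 0.398 against 0.438 and 2.42 against 2.69. How other sets of sites behave was not counted. For Nr4a1 the share was 2.32 to 2.50 in untreated KO, 2.60 to 3.14 in untreated WT, 3.38 to 3.53 in WT with acetate and 3.62 to 3.72 in KO with acetate, with no overlap between any of the 4 groups. How many of all genes separate in this way was not counted. In untreated WT the Nr4a1 share was 2.72 and 2.60 in the ATAC1 libraries and 3.14 in the ATAC2 library. All acetate libraries are ATAC2, and the part of the prefix was not tested. Egr2 was at 1.37 to 1.49 in untreated KO and 1.65 to 1.68 in untreated WT, without overlap. At the other genes untreated KO and untreated WT overlapped. Egr1 was at 1.07 to 1.24 and 1.12 to 1.29, and Egr3 at 0.864 to 0.910 and 0.837 to 1.16. Nr4a2 was at 0.246 to 0.322 and 0.285 to 0.438, and Nr4a3 at 2.22 to 2.32 and 2.21 to 2.69. Signal summed over the sites of a gene was 0.493 to 0.561 times as high in untreated KO as in untreated WT, lowest for Nr4a2 and highest for Egr1.

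**Figure D4:**
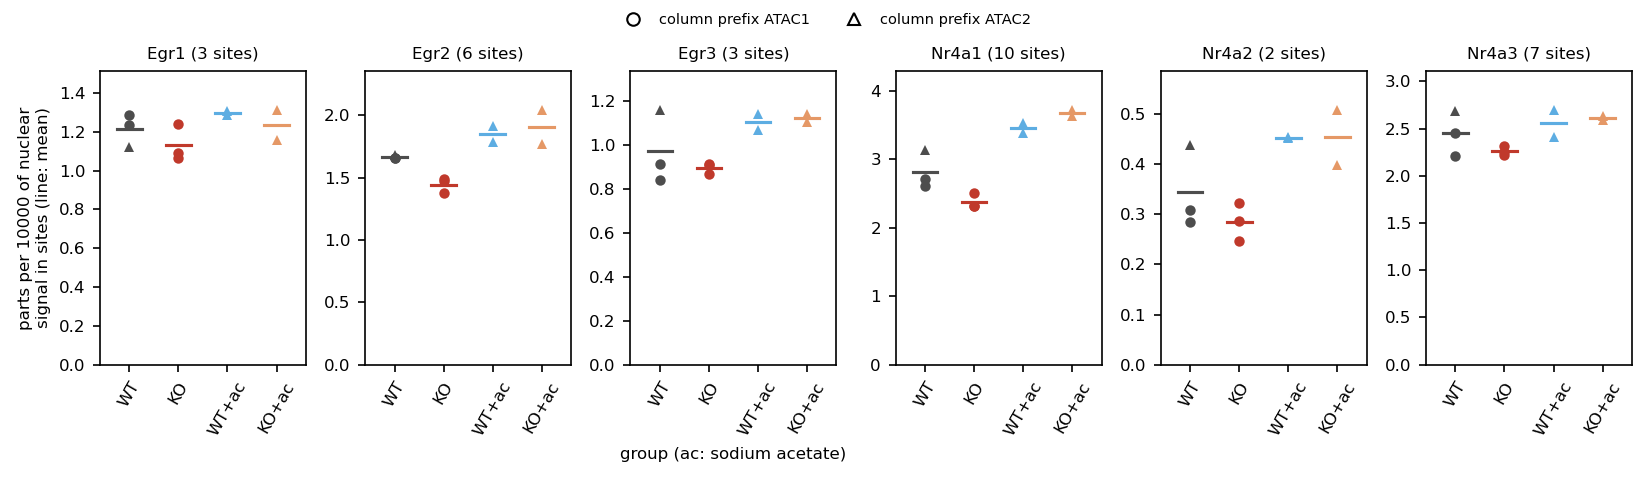
Parts per 10000 of the nuclear signal in sites that fall in the sites of each gene (vertical axis, from 0), in each library (points) with the group mean (line). For Nr4a1 the 4 groups do not overlap, from 2.32 in untreated KO to 3.72 in KO with acetate. For Egr1, Egr3, Nr4a2 and Nr4a3 untreated KO and untreated WT overlap. All acetate libraries have the prefix ATAC2, and the part of the prefix was not tested.

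The 6 genes also differed in how their profiles ran over the 10 libraries, taken as the mean log2 signal of a gene's sites less the library's median over all sites. Egr3 and Nr4a3 were the most alike pair of members (Pearson r = 0.967) and Egr2 and Nr4a1 came next (0.935), while Egr3 and Nr4a1 were the least alike (0.636). Among all genes with at least 3 sites the profiles most like Egr2 were those of Nln (0.993), Ccnl1 and B4galt5, and those most like Nr4a1 were Gas2 (0.992), Hip1 and Sdc1. For Nr4a3 they were Aplp1, Thra and Ptpn18, for Egr3 Lin54, Arrdc3 and Adgrl1, for Egr1 Slc29a3, Rassf3 and Dync1h1, and for Nr4a2 Tmsb10, Klrb1c and Osbp. These are descriptions over libraries that share groups and prefix, chosen as the highest among 4635 genes.

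The neighbouring parts of the pathway were taken as lists. Of 46 sites at 12 genes for partners and upstream factors, among them the EGR corepressors Nab1 and Nab2 and the SRF, ELK, CREB and MEF2 factors, 45 were lower and 1 higher in untreated KO, with a median of -0.89. With cyclic loess none was lower and 1 higher. The same shares over all sites, 89.6% lower and 9.07% higher as deposited and 2.41% and 9.35% with cyclic loess, stand beside this and the following lists, so the deposited counts are to be read against a table in which most sites were lower. Mef2d, which encodes a calcium-responsive activator of Nr4a1, had at chr3:88145452-88145652 a signal of 36.0 ± 3.83 (SD, n = 3) in KO and 104 ± 16.5 (n = 3) in WT, log2 -1.49 ± 0.25, and -0.57 with cyclic loess (adjusted p = 0.0621). In acetate that KO site was at 117, log2 1.65 above untreated and 0.91 with cyclic loess (adjusted p = 0.00389). Elk3 had a site at -1.41, and -0.51 with cyclic loess (adjusted p = 0.201), and Mef2a one at -1.10, and -0.28 with cyclic loess (adjusted p = 0.527).

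Of 99 sites at 14 other immediate early genes, 97 were lower and 2 higher, and with cyclic loess 3 and 2. The MAP kinase phosphatase gene Dusp5 was lower on both scales at chr19:53479718-53479918, with -1.46 ± 0.21 and -0.65 ± 0.17 (adjusted p = 0.0125). Ier3 was at -1.20 and -0.44 (adjusted p = 0.0173), and Dusp1 at -1.68 and -0.75 (adjusted p = 0.0525). With acetate in KO 64 of the 99 were higher and 2 lower, and with cyclic loess 23 and 10, against 54.6% and 5.94%, and 11.5% and 16.7%, of all sites.

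Genes linked to EGR2 and EGR3 in T cell tolerance had 68 sites, 66 lower and 2 higher in untreated KO, and 1 and 2 with cyclic loess; Rnf128 had no site. Ndrg1, a factor of T cell anergy, was lower on both scales at chr15:66970668-66970868, with 67.6 ± 11.2 in KO and 199 ± 29.2 in WT (log2 -1.55 ± 0.22, and -0.69 ± 0.16 with cyclic loess, adjusted p = 0.00431). With acetate the Ndrg1 site in KO was at 248, log2 1.85 above untreated and 1.18 with cyclic loess (adjusted p = 0.000124). Cblb, which encodes a ubiquitin ligase that restrains T cell activation, was at -1.24 without acetate, and -0.41 with cyclic loess (adjusted p = 0.245). With acetate in KO the Cblb site was at 0.39 against untreated (adjusted p = 0.145), and at -0.25 with cyclic loess (adjusted p = 0.402), so its sign depended on the scaling. Cdkn1b, which encodes the cell cycle inhibitor p27, had at chr6:134921541-134921741 a signal of 82.3 in KO and 218 in WT, log2 -1.35 ± 0.23, and -0.49 with cyclic loess (adjusted p = 0.184).

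Genes linked to NR4A factors in exhaustion had 53 sites, 48 lower and 2 higher, and 2 and 2 with cyclic loess. Tigit, an inhibitory receptor gene, was at -1.21 ± 0.20 at chr16:43698997-43699197 and at -0.49 with cyclic loess (adjusted p = 0.019). The Lag3 site chr6:124900561-124900761 was higher in KO, 709 ± 121 against 271 ± 6.69, log2 1.37 ± 0.20, and 2.1 ± 0.14 with cyclic loess (adjusted p = 1.69e-07). It lies next to Cd4, from which the Cre transgene takes its regulatory DNA, and the part of such reads was not tested. Entpd1, which encodes the ectonucleotidase CD39, was lower at chr19:40687354-40687554, 36.0 in KO against 115 in WT, log2 -1.61 ± 0.26, and -0.68 with cyclic loess (adjusted p = 0.062). With acetate in KO 40 of these 53 sites were higher and 1 lower, and with cyclic loess 10 and 5, beside the shares of all sites given for the immediate early genes.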

How the data were processed

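ATAC-seq libraries of 10 Th17 cultures were used. Per the submitters' processing notes the tools included BWA 0.7.16a and Picard 2.10.9, DiffBind 3.6.1 with DESeq2, and the peak caller Genrich, with build GRCm38; their order and settings are not given in the sources used here. The deposited table gives a normalized signal per site, which the authors appear to have made from read counts, since in each library all values are whole multiples (within 0.001 reads) of a library-specific unit. That multiple gave depth only; reads are therefore estimates, and a further check of the steps did not accept whole reads in every library. The sites are numbered in the file as differential, so they may have been selected on these libraries.

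Log2(signal + 1) was fitted with limma 3.58.1 (trend, robust; R 4.3.3) over all 39657 sites and 10 libraries as 4 group means, with Benjamini-Hochberg adjustment and calls under 0.05. Values with ± are SE for log2 differences and SD for signal. Folds are on the log2(signal + 1) scale and understate changes at weak sites. The fit was tested on simulated data. Alternatives were cyclic loess, median-of-ratios factors, total signal, a pseudocount of 10, a minimum mean of 30, prefix-limited fits, single libraries left out, a replicate block, only the groups compared and a 10 kb limit; ATAC2 libraries alone for acetate in WT were added after seeing the data.

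Per gene, the site with the highest mean log2 signal and the one with the smallest p in untreated KO against WT were given in full, and per pathway list up to 3 called sites with the smallest p were given by their values. Other sites given in full were chosen after their values were seen. The members and lists were chosen with earlier results of these data known. Exon or intron position was not annotated. Some marker results are not reported here.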

Additional observations from a re-analysis of the deposited data

Results flagged for a closer look

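The difference between genotypes in the response to acetate, tested as an interaction, was called as deposited at 12 of the 31 sites, in each case with a larger rise in KO than in WT. At Egr2 the log2 interaction was 1.69 at chr10:67490018-67490218, 0.86 at chr10:67493625-67493825 and 0.98 at the site inside the gene. At Nr4a1 it was 0.80 at the strongest site, 0.91 at chr15:101253841-101254041, 0.96 at chr15:101258537-101258737, 0.94 at the promoter and 1.75 at chr15:101275094-101275294. At Nr4a2 chr2:57117615-57117815 it was 1.09. At Nr4a3 it was 1.14 at chr4:48029693-48029893, 1.23 at the promoter and 1.06 at chr4:48047415-48047615. The median interaction over all sites was 0.67, and none of the 12 was called with cyclic loess, median-of-ratios factors or total signal. In KO the prefix of the column name is split by treatment, so the response and an unequal prefix effect in KO and WT cannot be told apart.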

How the results depend on the processing

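Of the 31 sites called in untreated KO against WT, 1 was called with cyclic loess, 1 with total signal and 1 with median-of-ratios factors, and 30 to 31 without single libraries. The Egr1 site chr18:34856287-34856487 went from -0.79 to 0.016 with median-of-ratios factors. For acetate in KO the count of 28 went to 14 with cyclic loess, 14 with total signal and 13 with median-of-ratios factors, and ran from 16 to 28 without single libraries. For acetate in WT the count of 1 went to 3 with cyclic loess, 2 with median-of-ratios factors, 2 with total signal and 0 with only the groups compared. Those settings called 8.5%, 7.58%, 6.78% and 1.85% of all sites, against 5.94% as deposited. The fit of ATAC2 libraries only has 1 untreated WT library, so its count is not given. Without single untreated libraries the count for acetate in WT ran from 1 to 2, with 2 without WT untreated 4, where 10.2% of all sites were called. The interaction count of 12 went to 0 with cyclic loess, 0 with total signal and 0 with median-of-ratios factors. It ran from 1 to 19 without single untreated libraries. It was 1 without KO untreated 1, 3 without KO untreated 2 or WT untreated 1, and 19 without WT untreated 2. Those fits called the interaction at 3.33%, 5.72%, 5.18% and 45.1% of all sites, against 23.1% as deposited. KO against WT with acetate stayed at 0 in every setting run. In all, 26 counts under alternatives differed from the reported one by over 1.5 times, and 66 stayed within 1.5 times of it. For single sites at genes other than Egr2, in untreated KO against WT, 14 values kept their direction and lost their call, all with a scaling other than the deposited one, and the Egr1 value that changed sign lost it too (adjusted p = 0.965). Over all sites the calls in untreated KO against WT went from 39142 to 4664 with cyclic loess, 5994 with total signal and 5140 with median-of-ratios factors. For acetate in KO they went from 24014 to 11192, 11847 and 11588, and for the interaction from 9159 to 2974, 2290 and 2679.

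The replicate block used the 8 libraries whose number is in the titles. For untreated KO against WT it called 31 of the 31 sites, where it called 97.5% of all sites. For acetate in WT it called 6, where it called 15.6% of all sites, against 5.94% as deposited. It leaves 1 KO library with acetate, so its counts for comparisons with that group are not given. Same-numbered libraries correlated at -0.12 to 0.33 in their deviations from group means. Deviations within such small groups are tied to each other, so these values cannot show whether same-numbered libraries share a source. Fits within a prefix could not be made for acetate in KO or for the interaction. A count test with edgeR on recovered reads was not run. Depth limits the weak sites most, where a value can rest on 11 reads.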
